A study of Homo sapiens with 6 samples.

Results

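The CCAAT/enhancer-binding proteins (C/EBPs) are a small family of transcription factors, and the 6 human genes that carry the name, CEBPA, CEBPB, CEBPD, CEBPE, CEBPG and CEBPZ, are described here in HEK293 cells with and without MUL1. They were taken by name and make up 6 of the 57123 genes in the count tables, of which 25125 had enough counts to be tested. The family was chosen by its CPM values (counts scaled to a common library total) in WT and MUL1(-/-) cells, which were already known when it was proposed, so the levels of its members in WT and MUL1(-/-) cells are given as values with no test.

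HEK293 is a human line that arose from embryonic kidney cells transformed with adenovirus DNA. MUL1 is an E3 ubiquitin ligase of the outer mitochondrial membrane. RNA was sequenced from 3 libraries of HEK293 WT cells and 3 of HEK293 cells labelled MUL1(-/-), in which MUL1 had been inactivated with CRISPR-Cas9, and both were grown in the same medium with no other treatment. Other measurements of the study used several independent clones, but how many clones or separate cultures stand behind the 3 libraries of each genotype is not given in the sources used here, so the errors below measure the spread between libraries, which may be technical, and genotype and clone cannot be told apart. In whole-culture RNA, fewer cells of a type and less RNA per cell cannot be told apart either.

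Gene counts, summed over the exon bins of each gene, totalled 127015142 to 142803296 per WT library and 121917971 to 122441959 per MUL1(-/-) library. At this depth the floor of 3 counts corresponded to 0.0212 to 0.0242 CPM. MUL1 RNA itself was at 16.5 ± 2.15 CPM (SD, n = 3) in WT and 18.2 ± 1.35 CPM in MUL1(-/-) libraries (log2 fold change 0.14, SE 0.10, adjusted p = 0.321 with edgeR's quasi-likelihood test), so the RNA level did not check the labels. Genes expressed in HEK293 were present in all libraries, with VIM, KRT8, KRT18, NEFL and LIN28B each above 50 CPM in the mean of both genotypes, whereas PAX2, a kidney lineage factor, fell from 9.46 to 2.72 CPM (log2 fold change −1.80, adjusted p = 1.53e-06).

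C/EBPs bind DNA as dimers through a basic region, followed by a leucine zipper along which the partners pair with each other or with other basic leucine zipper (bZIP) factors. CEBPB and CEBPD are early responders to cytokines and hormones and act at the start of fat cell formation, CEBPA acts later in it and in liver and myeloid differentiation, and CEBPE is known from the late maturation of granulocytes. CEBPG is a short member without a strong activation domain that pairs with other C/EBPs and with ATF4. CEBPZ shares the name through its reported CCAAT binding but is not a bZIP protein, and it is better known as a nucleolar factor of ribosome assembly.

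The part of the coding sequence that the bZIP members share most closely is shown because it sets out which of the 6 genes belong together. Each line gives 75 coding bases, 5′ to 3′, from the GENCODE 29 transcript (GRCh38), and capitals mark bases identical to CEBPA at the same place in the ungapped match. The sequence of CEBPD was not read.
CEBPA: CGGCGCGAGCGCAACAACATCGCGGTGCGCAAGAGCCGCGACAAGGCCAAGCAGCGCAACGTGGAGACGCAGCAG
CEBPB: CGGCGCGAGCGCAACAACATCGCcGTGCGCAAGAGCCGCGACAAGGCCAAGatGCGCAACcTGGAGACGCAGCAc
CEBPE: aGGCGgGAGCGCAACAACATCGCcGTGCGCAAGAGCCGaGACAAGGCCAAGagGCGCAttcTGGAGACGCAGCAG
CEBPG: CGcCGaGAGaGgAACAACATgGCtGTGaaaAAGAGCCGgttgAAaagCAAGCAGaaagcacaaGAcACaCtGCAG
CEBPZ: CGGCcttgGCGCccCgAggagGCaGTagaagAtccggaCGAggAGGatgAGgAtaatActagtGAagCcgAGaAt

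The window covered codons 288 to 312 of 358 in CEBPA (chr19:33301479-33301553, minus strand), codons 277 to 301 of 345 in CEBPB (chr20:50191862-50191936, plus strand), codons 210 to 234 of 281 in CEBPE (chr14:23117631-23117705, minus strand) and codons 68 to 92 of 150 in CEBPG (chr19:33379441-33379515, plus strand). CEBPB matched CEBPA at 70 of 75 bases (93.3%) and CEBPE at 66 (88.0%), whereas CEBPG matched it at 47 (62.7%). CEBPB and CEBPE matched each other at 68 bases. The closest stretch of the 1054-codon CEBPZ (chr2:37231454-37231528, minus strand) matched at only 31 bases (41.3%), with no visible run of the shared sequence. CEBPE, the member whose RNA differed most between the genotypes, therefore has a DNA-contacting stretch close to those of CEBPA and CEBPB.

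Among the 6 members, CEBPE was at or near 0 in MUL1(-/-) cells, CEBPD was higher there, and CEBPA and CEBPG were moderately higher. The summed CPM of CEBPB and CEBPZ overlapped between the genotypes, but CEBPZ was separate in its most counted bin. All 6 passed the filter on low counts, CEBPE only through its WT libraries. For 4 members the summed WT and MUL1(-/-) values were fully separate, against 48.5% of all genes tested. Because these values were known when the family was chosen, nothing is read from this share. The thresholds of the study, an adjusted p under 0.05 and a log2 fold change above 1 in size, are used below for other genes. Of all tested genes 8.11% passed both and 37.5% passed the adjusted p alone. The median log2 fold change of the 6 members was 0.22, beside −0.01 over all tested genes.

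**Figure D1:**
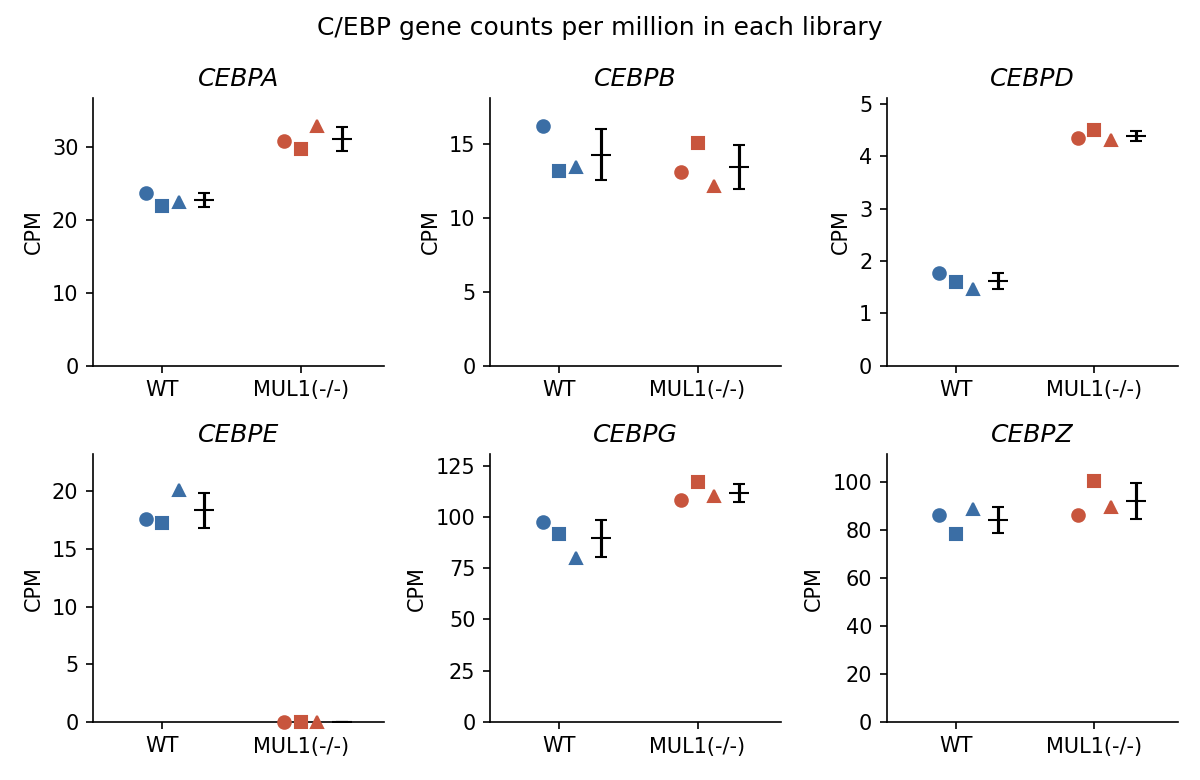
CPM of the 6 C/EBP genes in each library; circles, squares and triangles are replicates 1, 2 and 3 of WT (blue) and MUL1(-/-) cells (red), and black bars are the mean with the SD (n = 3). CEBPE lies between 17.3 and 20.1 CPM in WT and at or near 0 in MUL1(-/-) libraries, CEBPD lies higher in all MUL1(-/-) libraries, and the values of CEBPB and CEBPZ overlap.

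CEBPE (ENSG00000092067; GRCh38 chr14:23117304-23119616, minus strand), the granulocyte member, was counted 2241, 2444 and 2532 times in the WT libraries and 3, 3 and 0 times in the MUL1(-/-) libraries. This corresponded to 17.6, 17.3 and 20.1 CPM in WT and to 0.0237, 0.0240 and 0 CPM in MUL1(-/-) cells. Every MUL1(-/-) library was thus at or under the floor of 3 counts, and every WT library was far above it. With counts summed per genotype, 7217 against 6, the ratio of WT to MUL1(-/-) was 1145. Reads that span both bins enter this sum once per bin, so no interval is given for it. With the most counted bin alone, 4252 against 2, the ratio was 2004 (95% exact interval 554 to 16555, counting error only). This interval pools the libraries of each genotype and does not cover the spread between them.

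CEBPE has 2 exon bins, neither touching an exon of another gene, and both had the same pattern. The 5′ bin was counted 1310, 1477 and 1465 times in WT and 1, 1 and 0 times in MUL1(-/-) libraries. The second bin, which holds the basic region shown above, was counted 931, 967 and 1067 times in WT and 2, 2 and 0 times in MUL1(-/-) libraries. The counts were therefore missing from both ends of the gene and not from a single exon.

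CEBPD (ENSG00000221869; chr8:47736909-47739086, minus strand), an early responder to cytokines, consists of 1 exon bin with no overlapping exon of another gene. It was counted 226, 225 and 185 times in WT and 550, 563 and 534 times in MUL1(-/-) libraries, or 1.78, 1.59 and 1.47 CPM against 4.35, 4.50 and 4.31 CPM. All MUL1(-/-) values lay above all WT values, and the spread within each genotype was small beside the difference. The means were 1.61 ± 0.156 and 4.39 ± 0.0999 CPM (SD, n = 3), a 2.72-fold difference (log2 fold change 1.44, SE 0.13). CEBPD was still the least counted bZIP member apart from CEBPE in the MUL1(-/-) cells.

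CEBPA (ENSG00000245848; chr19:33299934-33302564, minus strand), the differentiation factor of liver, fat and myeloid cells, was at 23.7, 21.9 and 22.5 CPM in WT and at 30.8, 29.7 and 32.8 CPM in MUL1(-/-) cells. The lowest MUL1(-/-) library lay above the highest WT library. The means were 22.7 ± 0.941 and 31.1 ± 1.61 CPM (SD, n = 3; log2 fold change 0.45, SE 0.08). Its only bin is overlapped on the other strand by the exons of the antisense genes ENSG00000267580 and ENSG00000267727, which lie inside it, and since the counting did not separate strands, the reads of the 3 genes cannot be told apart.

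CEBPG (ENSG00000153879; chr19:33373330-33382686, plus strand), the partner of ATF4, lies 70765 bases from CEBPA. It was at 97.2, 91.9 and 79.7 CPM in WT and at 108, 117 and 110 CPM in MUL1(-/-) libraries, again without overlap. The means were 89.6 ± 9.0 and 112 ± 4.51 CPM (SD, n = 3; log2 fold change 0.32, SE 0.08). CEBPG was the most counted of the bZIP members in every library, and most of its counts fell in its last bin.

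CEBPB (ENSG00000172216; chr20:50190734-50192689, plus strand), the other early responder, was at 16.3, 13.2 and 13.4 CPM in WT and at 13.1, 15.1 and 12.1 CPM in MUL1(-/-) libraries. The values of the genotypes were interleaved. The means were 14.3 ± 1.71 and 13.4 ± 1.49 CPM (SD, n = 3), and the log2 fold change of −0.09 (SE 0.11) was smaller than its error. Its single bin is overlapped by CEBPB-AS1 on the other strand.

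CEBPZ (ENSG00000115816; chr2:37201612-37231713, minus strand), the ribosome assembly factor, was at 86.3, 78.4 and 88.8 CPM in WT and at 86.2, 100.5 and 89.8 CPM in MUL1(-/-) libraries, which overlapped. The means were 84.5 ± 5.43 and 92.1 ± 7.42 CPM (SD, n = 3; log2 fold change 0.13, SE 0.08). The values were separate in its most counted bin, which touches no exon of another gene. They were 51.0, 49.8 and 55.8 CPM per kb in WT and 59.7, 65.5 and 59.3 in MUL1(-/-) libraries. Of its 20 exon bins, 10 touch exons of other genes and held 46.9% of its counts. In the 9 other bins with at least 1 CPM, the log2 ratio of MUL1(-/-) to WT ran from 0.07 to 0.24. All bins from 13 to 20, at the 3′ end, touch other exons. Bins 17 to 20, shared with CEBPZOS, were at −0.01, 0.01, 0.07 and −0.04.

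**Figure D2:**
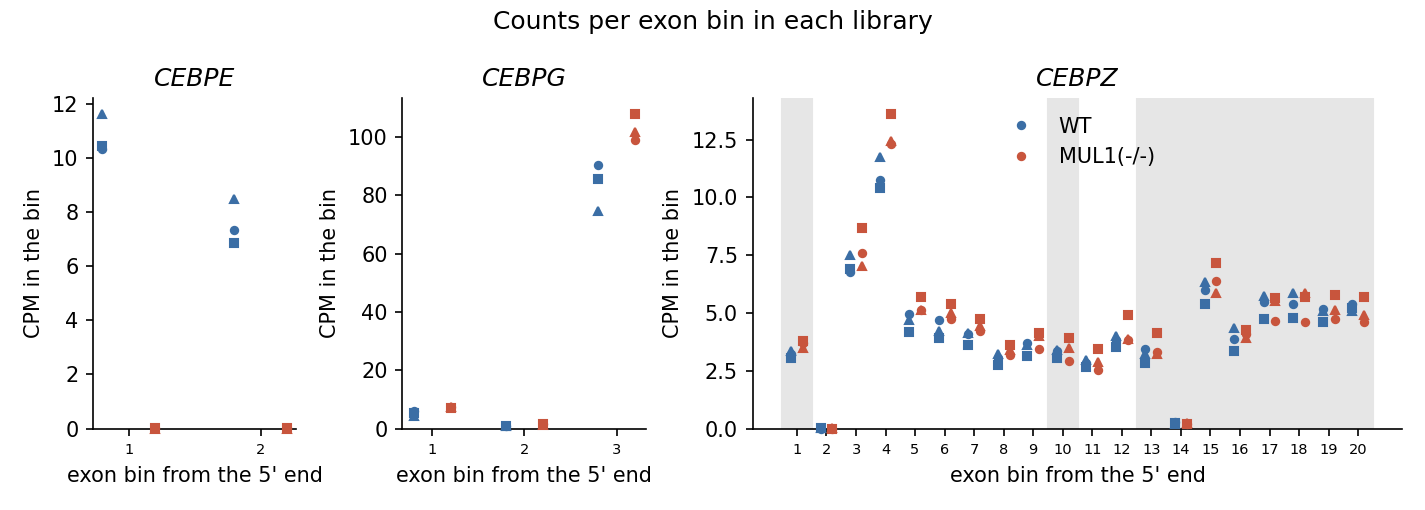
CPM in each exon bin, counted from the 5′ end, of the 3 members with more than 1 bin; symbols are replicates of WT (blue) and MUL1(-/-) cells (red), and grey marks CEBPZ bins that touch exons of other genes. Both CEBPE bins are at or near 0 in the MUL1(-/-) libraries, while the CEBPZ bins differ far less between the genotypes.

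Levels of different genes were compared per length, as CPM per kb of the most counted exon bin. In WT cells CEBPG had the highest level (119 ± 11.3 CPM per kb, SD, n = 3), followed by CEBPE (52.9 ± 3.58) and CEBPZ (52.2 ± 3.21), whose values overlapped, then by CEBPA (43.7 ± 1.57), CEBPB (37.0 ± 4.23) and CEBPD (3.75 ± 0.351), each separate from the next. In MUL1(-/-) cells CEBPG again came first (149 ± 6.28 CPM per kb), followed by CEBPZ (61.5 ± 3.45) and CEBPA (60.5 ± 2.82), whose values overlapped, then by CEBPB (35.2 ± 3.99), CEBPD (10.3 ± 0.263) and CEBPE (0.0263). On this measure CEBPE went from the second place in the order to the last. The order depends on the bin taken. Over all bins the WT means were 84.5 CPM in 3629 bases for CEBPZ and 89.6 CPM in 4411 bases for CEBPG. Per length, CEBPG would then not come first in WT. The other CEBPE bin held 7.54 CPM in 519 bases in WT, against 10.8 CPM in 1035 bases for the bin used.

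The summed level of the 5 bZIP members nevertheless overlapped between the genotypes, at 245 to 270 CPM per kb in WT and 250 to 264 in MUL1(-/-) libraries. CEBPE made up 18.6% to 23.2% of this sum in WT and 0% to 0.0158% in MUL1(-/-) libraries. The share of CEBPG was 43.6% to 48.3% in WT and 57.8% to 59.2% in MUL1(-/-) cells, that of CEBPA 16.6% to 17.7% and 21.9% to 25.3%, and that of CEBPD 1.39% to 1.52% and 4.01% to 4.13%. The share of CEBPB, 13.5% to 15.5% in WT and 12.6% to 15.0% in MUL1(-/-) libraries, overlapped. The shares sum to a whole in each library, so they are not independent of each other, and they rest on the same choice of bin.

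**Figure D3:**
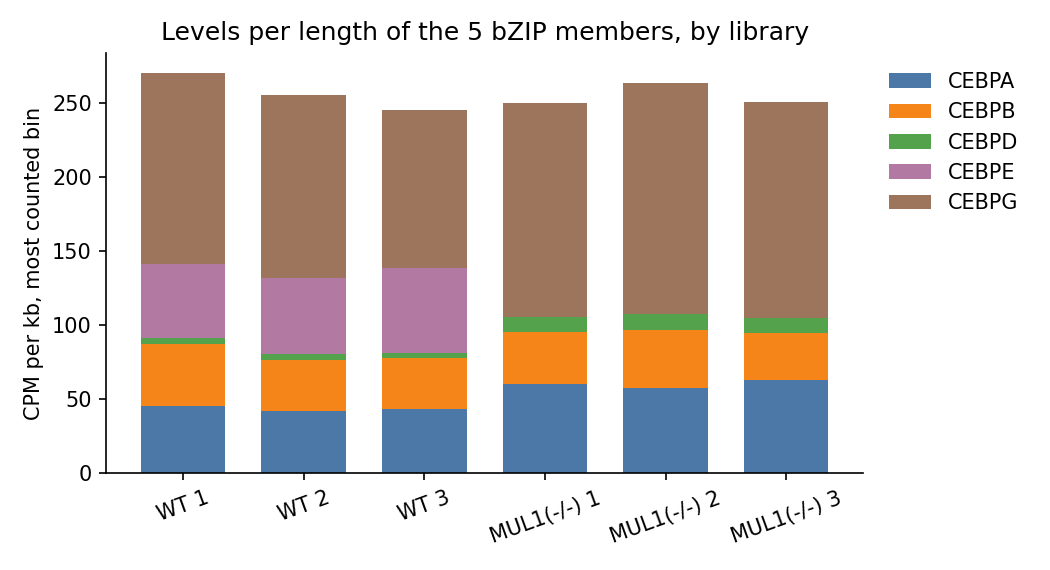
CPM per kb of the most counted exon bin of the 5 bZIP members, stacked for each WT and MUL1(-/-) library. The stacks reach 245 to 270 in WT and 250 to 264 in MUL1(-/-) libraries, and the CEBPE segment is visible only in WT.

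The transcripts that lie on or beside the members are non-members and were tested in the fit across all genes. CEBPA-DT, a divergent transcript that starts 292 bases from CEBPA, was at 4.74, 5.24 and 4.51 CPM in WT and at 3.75, 3.74 and 2.48 CPM in MUL1(-/-) libraries. It was lower in MUL1(-/-) cells at the adjusted p alone (log2 fold change −0.54, SE 0.15, adjusted p = 0.0102), whereas the antisense genes counted within the CEBPA exon, ENSG00000267580 (0.29, SE 0.09, adjusted p = 0.0194) and ENSG00000267727 (0.64, SE 0.10, adjusted p = 1.79e-04), were higher, as the CEBPA counts they share were. The CEBPA-DT difference missed the threshold without WT replicate 2 (adjusted p = 0.0515).

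CEBPB-AS1, antisense to CEBPB, was at 2.19 ± 0.423 CPM in WT and 2.77 ± 0.196 in MUL1(-/-) cells (SD, n = 3; log2 fold change 0.34, SE 0.15, adjusted p = 0.0902). Of its counts, 85.2% lay in bins that touch other exons, CEBPB among them. In its unshared bins alone it was lower in MUL1(-/-) cells (log2 fold change −1.01, adjusted p = 0.00350), so its direction depended on which bins were counted. CEBPZOS, which overlaps CEBPZ on the other strand, was at 61.4 ± 2.45 and 59.4 ± 6.06 CPM (−0.05, SE 0.08, adjusted p = 0.685).

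The 5 nearest tested genes on each side of each member were then examined, beside 8.11% of all genes tested past both thresholds. Around CEBPE, 1 of 10 neighbours passed both thresholds, and it was lower: CIROP, a metallopeptidase-family gene 12311 bases away, was at 2.78 ± 0.509 CPM in WT and 0.436 ± 0.0990 CPM in MUL1(-/-) cells (log2 fold change −2.67, SE 0.20, adjusted p = 1.04e-07). With its most counted bin alone, which lies within an exon of C14orf119 on the other strand, the log2 fold change was −0.95. SLC7A8, an amino acid transporter 5678 bases away on the other side of CEBPE, was at 15.5 ± 0.853 and 13.8 ± 1.18 CPM (adjusted p = 0.165). The median of the 10 neighbours was −0.23, so the size of the CEBPE difference was not shared by the genes around it.

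Around CEBPB, LINC01273, a long non-coding RNA 14062 bases away, fell from 1.23 ± 0.0991 to 0.0452 ± 0.0378 CPM (log2 fold change −4.74, SE 0.33, adjusted p = 6.96e-08), while the other neighbours did not pass both thresholds. The neighbours of CEBPD had a median log2 fold change of 0.54 and all 10 were above 0, from 0.16 to 1.08. The quartiles over all tested genes were −0.30 and 0.28. Among them PXDNL, a peroxidasin-like gene 3580491 bases away, passed both thresholds at a very low level (0.0871 and 0.184 CPM, adjusted p = 0.0349), and lost the call in 7 of 13 alternatives. The adjacent SPIDR, a DNA repair gene that ends 602 bases from CEBPD, was at 51.7 ± 1.81 CPM in WT and 76.9 ± 1.83 CPM in MUL1(-/-) cells (log2 fold change 0.57, SE 0.07, adjusted p = 9.91e-06). CEBPD, at 1.44, lay above all its neighbours. The neighbours ENSG00000253330, ENSG00000269924 and ENSG00000251354 lie inside the span of SPIDR, at 0.0932 to 0.277 CPM. Their edgeR adjusted p were 0.264, 0.131 and 0.466. Not all 10 neighbours are thus separate stretches of the chromosome. The neighbours of CEBPA, CEBPG and CEBPZ had medians of 0.30, −0.01 and 0.14, with none past both thresholds; those of CEBPA and CEBPG are partly the same genes. SLC7A8 and SPIDR were picked for their position after their values were seen.

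**Figure D4:**
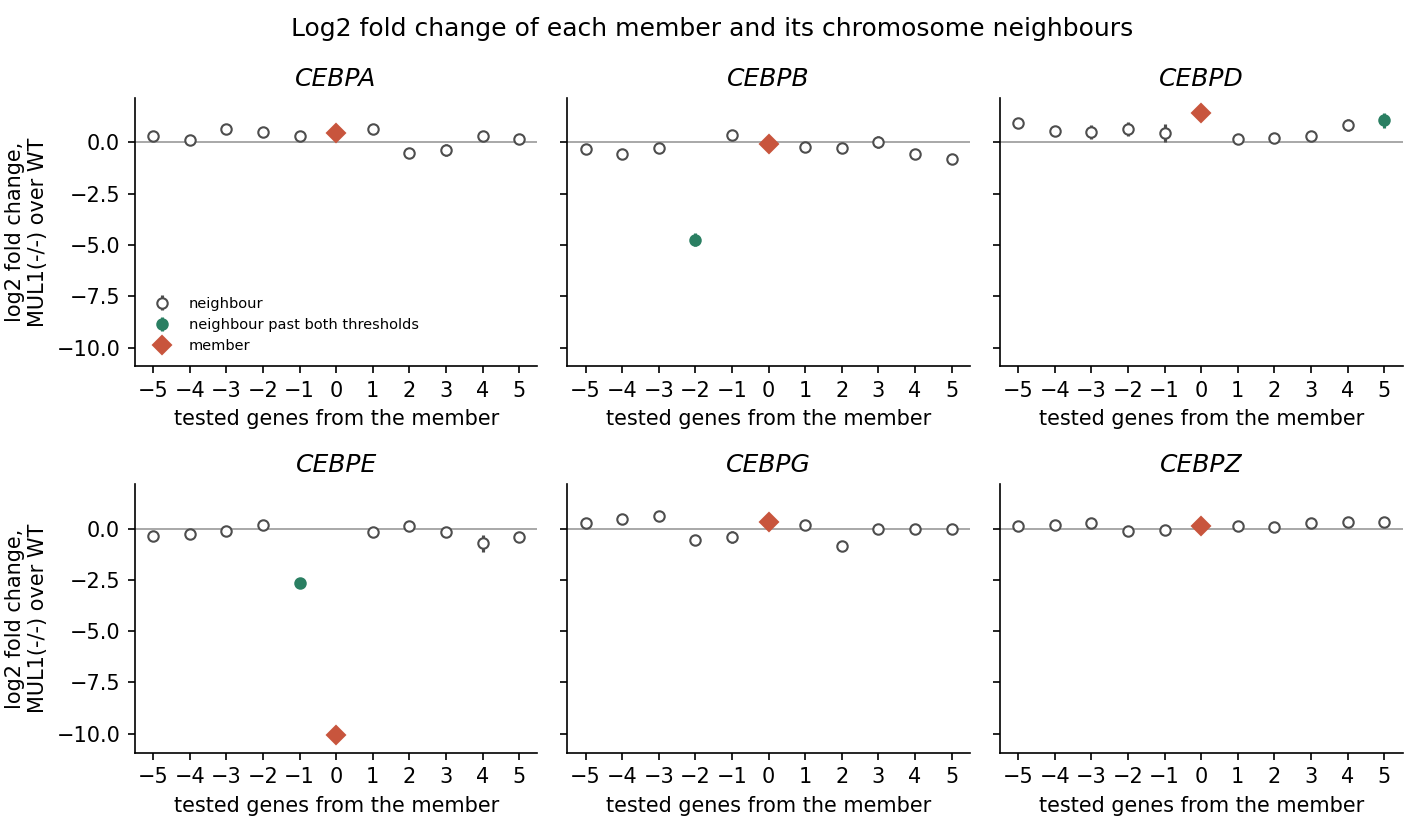
Log2 fold change (MUL1(-/-) over WT, bars SE) of each member (diamond) and of the 5 nearest tested genes on each side, in order along the chromosome. CIROP beside CEBPE and LINC01273 near CEBPB lie far below 0, and the 10 neighbours of CEBPD, some of them inside SPIDR, all lie above 0.

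Promoter windows from 250 bases before to 50 bases after the RefSeq start (GRCh38.p14) were searched for short motifs on both strands. They describe the starts of 5 members, and a link between these starts and the RNA levels was not tested. The CEBPE window held 2 CpG dinucleotides, against 26 to 50 in the windows of CEBPA, CEBPB, CEBPG and CEBPZ and a median of 14 over 35116 windows. It held the letters TGANTCA, a match to the AP-1 motif that 7.71% of all windows hold, and the windows of CEBPA, CEBPB, CEBPG and CEBPZ did not. CEBPD was not searched. The letters TATAAA, found in 11.5% of windows, occurred in CEBPA and CEBPB, and CCAAT, found in 34.6%, in CEBPB and CEBPG. The 7 windows of these 5 genes did not hold TTNNGNAA, a form of the C/EBP motif present in 36.8% of windows. The matches with bases around them are given 5′ to 3′ on the gene's strand, with the motif in capitals.
CEBPE, AP-1 letters from base −100 (chr14:23119337-23119366): ctgcccctcccTGAGTCAccccaaggggag
CEBPA, TATA letters from base −30 (chr19:33302547-33302576): cggcctgccgggTATAAAagctgggccggc
CEBPB, TATA letters from base −29 of its second start (chr20:50190789-50190818): acgggccgccctTATAAAtaaccgggctca

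Genes that act with, upstream of or downstream of C/EBPs were followed in 11 lists of 160 genes, of which 131 were tested. In all, 5 passed both thresholds upward and 6 downward, against 4.23% and 3.87% of all genes tested, which is close to the background. At the adjusted p alone 36 were higher and 31 lower, against 18.8% and 18.7% of all genes, and the pooled median log2 fold change was 0.07. The lists below were read gene by gene, and genes named for passing the adjusted p alone were picked after their values were seen. The same shares of all genes tested apply beside each list.

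Among 10 genes of the ATF4 group and CHOP, which pair with C/EBPs or answer to the same stress response, none passed both thresholds and the median log2 fold change was −0.35, beside −0.01 for all genes. At the adjusted p alone, 5 were lower, beside 18.7% of all genes tested. They were ATF4 itself (377 ± 63.1 to 285 ± 21.5 CPM, −0.40, adjusted p = 0.00531), DDIT3, which encodes CHOP (−0.40), asparagine synthetase ASNS (−0.59), SESN2 (−0.49) and the lipoprotein receptor VLDLR (−0.82). The 3 higher genes, beside 18.8% of all genes tested, were the phosphatase subunit PPP1R15A (15.1 ± 0.938 to 23.7 ± 2.12 CPM, 0.65, adjusted p = 5.23e-05), ATF5 (0.31) and ATF3 (0.29). ATF4 values overlapped between the genotypes. WT replicate 3 lay at the level of the MUL1(-/-) libraries both for ATF4 (305 CPM, against 272 to 310) and for ASNS (259.7 CPM, against 231 to 259.4), whereas the other WT libraries were at 404 and 423 CPM for ATF4 and at 411 and 441 CPM for ASNS. Bins shared with other genes held 95.7% of ASNS and 72.9% of DDIT3 counts. With unshared bins alone, 1 gene of the list passed both thresholds downward.

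Among 12 tested AP-1 and other dimer partners, FOSB was higher, from 1.99 ± 0.0673 to 4.92 ± 1.44 CPM (log2 fold change 1.31, SE 0.18, adjusted p = 5.19e-05), and no gene passed both thresholds downward. At the adjusted p alone BATF3 was also higher (0.79), and FOSL2 (−0.86) and ATF2 (−0.22) were lower. JUN, the most counted of the group, was at 203 ± 29.1 and 217 ± 17.1 CPM (0.10, adjusted p = 0.459). The median of the list was −0.02. The 4 related factors DBP, HLF, TEF and NFIL3 had log2 fold changes from −0.21 to −0.02 and adjusted p from 0.269 to 0.922.

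Of the cytokine, hormone and NF-κB components that induce C/EBP genes, 12 of 14 were tested, none passed both thresholds, and the median was 0.12. Higher at the adjusted p alone were NFKB1 (18.4 ± 1.19 to 30.6 ± 3.16 CPM, 0.73), the shared receptor chain IL6ST (0.45) and JAK1 (0.23), and lower were the receptors OSMR (−0.62) and LIFR (−0.51) and the feedback inhibitor SOCS3 (−0.52). Receptor chains of the interleukin-6 family thus differed in both directions. IL6 itself was too low to be tested.

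The 16 genes of C/EBP turnover and modification, such as the kinases and ubiquitin ligase components that act on C/EBP proteins, held 1 gene past both thresholds, MAPK3, which encodes ERK1. It fell from 77.8 ± 5.87 to 37.5 ± 1.79 CPM (log2 fold change −1.05, SE 0.08, adjusted p = 9.30e-08). It missed the threshold on size with library totals (−0.98) and with the most counted bin (−0.96). The ERK-activated kinase RPS6KA1 (−0.83) and CDK2 (−0.25) were lower at the adjusted p alone, and TRIB1, the scaffold that brings CEBPA to the ligase COP1 (20.5 ± 2.25 to 32.0 ± 2.54 CPM, 0.64), GSK3A (0.60), the coactivators CREBBP (0.56) and EP300 (0.36) and SMARCA4 (0.50) were higher. The median of the list was 0.06.

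Of 16 tested genes of the adipogenic cascade, FABP4, a fatty acid carrier, passed both thresholds upward, at 0.0541 ± 0.0486 and 0.331 ± 0.141 CPM (log2 fold change 2.61, SE 0.49, adjusted p = 6.63e-04). PPARG, the partner of CEBPA in fat cell formation, was at 20.9 ± 2.35 and 26.1 ± 0.967 CPM (0.32, adjusted p = 0.0126), and SREBF1 (0.66), lipoprotein lipase LPL (0.65) and PLIN1 (0.66) were also higher at the adjusted p alone. EBF1 (−0.96), the glucose transporter SLC2A4 (−0.88) and PPARGC1A (−0.44) were lower. The median was 0.32. Adipocyte markers summed to 0.643 to 0.810 CPM in WT and 1.34 to 1.45 CPM in MUL1(-/-) libraries. Of the 3 tested, 1 passed both thresholds upward, against 4.23% of all genes tested. The defining ADIPOQ had at most 2 counts in any library.

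Liver and acute-phase targets were mostly silent: 15 of 26 were too low to be tested, 6 were at or under 3 counts in every library, and with edgeR none passed both thresholds. This count depended on the settings, since 1 gene passed both upward with limma-voom, with the most counted bin or without a low-count filter, and 2 passed with library totals. Leaving out each library in turn gave 0 to 1. Among the 11 tested the median log2 fold change was 0.47, and 6 were higher at the adjusted p alone, beside 18.8% of all genes tested. Among these were the tyrosine aminotransferase TAT (0.97), the gluconeogenic PCK1 (0.719 ± 0.0811 to 1.39 ± 0.0125 CPM, 0.94), transferrin TF (0.85), the urea cycle enzyme CPS1 (8.22 ± 0.828 to 12.2 ± 0.275 CPM, 0.57) and complement C3 (0.47). Most counts of TAT lay in bins shared with other genes. Albumin was at 0.169 and 0.213 CPM. The 4 hepatocyte markers summed to 0.156 to 0.325 CPM in WT and 0.234 to 0.344 CPM in MUL1(-/-) libraries, and albumin was the only one tested (adjusted p = 0.532).

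Of the myeloid and granule targets, which include those known for CEBPE, 10 of 19 were tested and all were low, with CD14 the most counted at 0.753 and 1.07 CPM. The median log2 fold change was −0.11. The neutrophil serine protease gene PRTN3 and its neighbour AZU1 were lower, at 0.413 ± 0.174 and 0.114 ± 0.0717 CPM (log2 fold change −1.84, SE 0.43, adjusted p = 0.00350) and at 0.257 ± 0.0919 and 0.0851 ± 0.0193 CPM (−1.58, SE 0.37, adjusted p = 0.00337). The receptor gene CSF2RA was higher, at 0.0557 ± 0.000752 and 0.440 ± 0.140 CPM (2.96, SE 0.35, adjusted p = 1.16e-05). With the most counted exon bin alone no gene of the list was called in either direction, and PRTN3, AZU1 and CSF2RA had no fitted value there. The granule genes ELANE, MPO, LTF, CAMP and MMP8 were too low to be tested in either genotype. Leukocyte markers summed to 1.17 to 1.56 CPM in WT and 2.22 to 2.62 CPM in MUL1(-/-) libraries. Of the 4 tested, 2 passed both thresholds upward, against 4.23% of all genes tested. PTPRC (0.0951 to 0.365 CPM, 8 to 52 counts per library) was among them, while CD3E had at most 1 count. The part of these markers in the myeloid values was not tested.

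The inflammatory targets held the most calls, 2 upward and 3 downward among 15, beside 4.23% and 3.87% of all genes tested. Their median was −0.29. With at least 1 CPM in 3 samples 1 gene was called higher and 1 lower. With the most counted bin these numbers were 1 and 5. NOS2, the inducible nitric oxide synthase, was lower, at 6.11 ± 0.967 and 1.95 ± 0.594 CPM (log2 fold change −1.64, SE 0.19, adjusted p = 7.26e-06), as were TNF (0.299 ± 0.0190 and 0.0586 ± 0.00971 CPM, −2.33) and the chemokine CXCL1 (0.810 ± 0.248 and 0.311 ± 0.0968 CPM, −1.38). PTGS2, which encodes cyclooxygenase-2, was higher, at 0.577 ± 0.130 and 1.61 ± 0.149 CPM (1.47, SE 0.19, adjusted p = 2.06e-05). The chemokine CCL2 was higher at 0.0993 and 0.263 CPM (1.40, adjusted p = 0.0116), and lost the call without WT replicate 1 or MUL1(-/-) replicate 2 (adjusted p = 0.0562 and 0.0693). At the adjusted p alone CXCL8, CXCL2, CXCL3 and ICAM1 were also lower, from −0.87 to −0.56, and IL1A (0.96) and PTX3 (0.45) higher. IL1B missed the adjusted p.

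Of 16 associates of CEBPZ in ribosome assembly and m6A writing, none passed both thresholds, and the median was 0.00. The nucleolar complex genes NOC2L (338 ± 13.6 to 226 ± 15.5 CPM, −0.58) and NOC3L (−0.49) were lower at the adjusted p alone, as were the methyltransferase METTL3 (−0.34), RRP1 (−0.29) and WDR12 (−0.19), and PES1 (0.33) and NOP2 (0.19, mostly in bins shared with another gene) were higher. NOC4L was at 52.4 and 59.0 CPM (0.17, adjusted p = 0.0783). Of the 9 other CCAAT-binding factors none passed both thresholds; NFIX (19.9 ± 3.49 to 36.5 ± 1.15 CPM, 0.87), NFIC (0.52), NFIA (0.36) and NFYC (0.27) were higher and CUX1 (−0.22) lower at the adjusted p alone, with a median of 0.19.

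**Figure D5:**
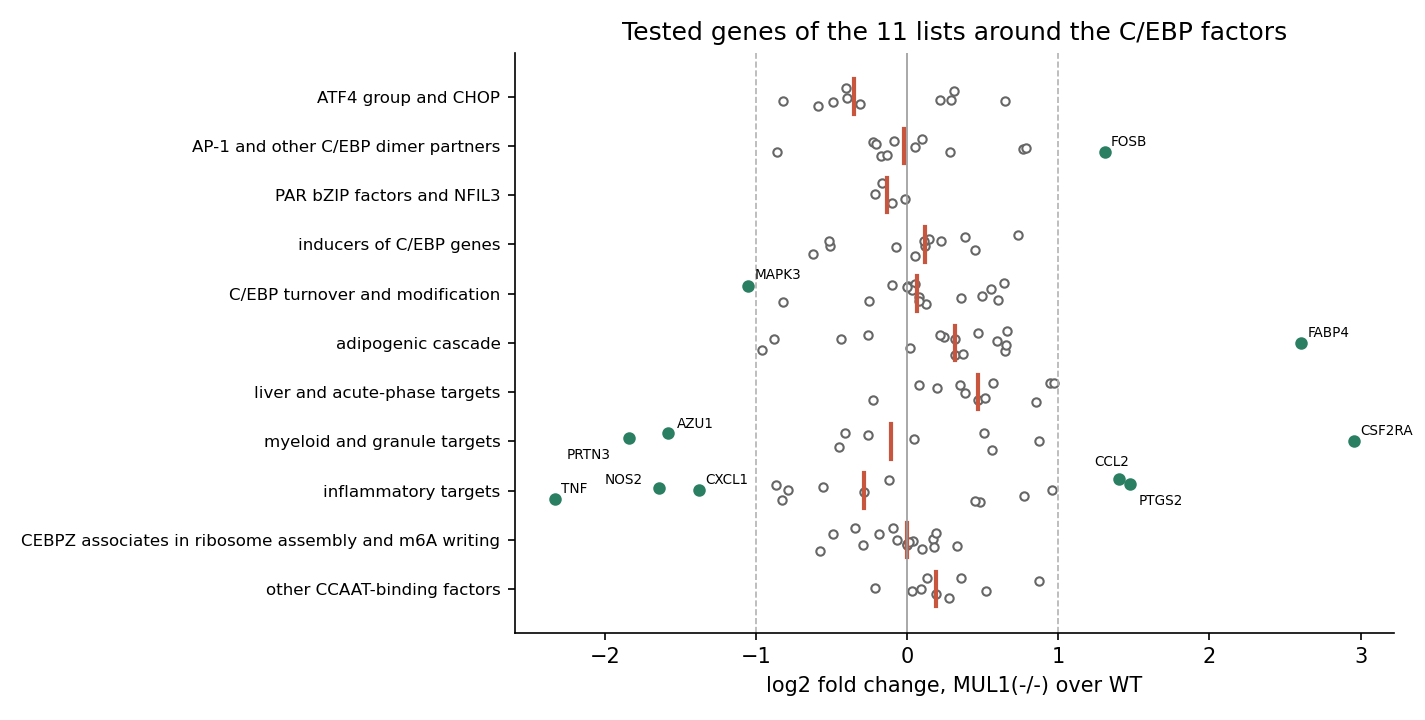
Log2 fold change (MUL1(-/-) over WT) of the tested genes of the 11 lists; each point is a gene, red bars are list medians, dashed lines mark a log2 fold change of 1 in size, and filled, named points passed both thresholds. The 11 named genes, 5 higher and 6 lower, lie mainly in the inflammatory and myeloid lists, whose numbers of calls changed with the settings.

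Profiles over the 6 libraries were compared among 15857 genes whose mean reached 1 CPM, by the root mean square (RMS) difference of centred log2 CPM. The nearest to CEBPE were GAL, a neuropeptide gene (3.71 CPM in WT and 0 in MUL1(-/-) libraries), PUDP (7.59 and 0.0133 CPM) and GSTP1, a glutathione transferase (70.1 and 0.267 CPM), all at an RMS of 0.85. These genes share with CEBPE a near loss of counts in MUL1(-/-) libraries, but the size of the loss differed from gene to gene. The nearest to CEBPD were SP110 (3.84 and 10.4 CPM, RMS 0.053), ENSG00000283480 and SLC51A.

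CEBPG lay nearest to PPARG, STAT5B and PDE8A (RMS 0.020 to 0.026), and CEBPA to CAPN2, PPP5C and JSRP1 (RMS 0.012 to 0.017). CEBPB lay nearest to TTC7A and LOXL1-AS1, and CEBPZ to ENSG00000258424, NFYB and DSTN. With 6 libraries in 2 genotypes these likenesses rest largely on the difference between the genotypes, and are given as a description.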

How the data were processed

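RNA-seq count tables of 3 WT and 3 MUL1(-/-) libraries were used. The tables deposited by the authors hold raw read counts for exon bins, with no normalization; per the labels, reads were trimmed with Trimmomatic 0.36 and aligned with STAR 2.5.2b to GRCh38, and the counting program and annotation are not given in the sources used here. The design had assumed counts per gene. Gene counts were therefore the sum over the 597973 exon bins of each gene; bins of the 2031 joined identifiers were given to the only gene whose same-strand GENCODE 29 exons they overlap, and 4.37% of counts in ambiguous bins were left out. Reads that span bins are counted once per bin, which makes these sums larger than read numbers (most counted bins summed to 23786555 to 28116976 per library), and strand was not separated.

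Genes were fitted with edgeR 4.0.16 in R 4.3.3 (TMM factors 0.946 to 1.03, filterByExpr, quasi-likelihood test, Benjamini-Hochberg adjustment over 25125 genes), without a replicate block. The study used DESeq2's Wald test with the same thresholds; DESeq2 1.42.0 and limma 3.58.1 gave alternatives. CPM used TMM-scaled totals. The fits were tested on simulated data. Python 3.11.15 with pandas 2.3.3 and scipy 1.17.1 made the tables. Squared differences between replicates were 2.95 to 10.8 times those of sampling noise (chi-square per degree of freedom), and replicates were kept separate. The floor was 3 counts, and the exact interval covers counting error only.

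Named genes were MUL1, the members, transcripts on or beside them, called genes of the lists and among 5 tested neighbours on each side, and the 3 nearest profiles of each member. A few genes named by this rule or counted in a list are left out of the text. The members and lists were chosen with earlier results of these data known.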

Additional observations from a re-analysis of the deposited data

How the results depend on the processing

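The log2 fold changes of CEBPD and CEBPG moved by less than the spread between replicates under all 15 alternatives tried for each, between 1.38 and 1.52 and between 0.24 and 0.39, and that of CEBPB under all 14, between −0.16 and 0.01. CEBPA moved to 0.52 with library totals, and CEBPZ to 0.24 and CEBPE to −10.73 with the most counted bin. Leaving out each library in turn gave 0.41 to 0.50 for CEBPA, −10.46 to −9.53 for CEBPE and 0.07 to 0.18 for CEBPZ. The CEBPE values depend on the prior count and are no bound. CEBPA and CEBPB have no unshared bin, so that alternative gave no value for them. Library totals moved the median of all genes by 0.07.

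With at least 1 CPM in 3 samples, 331 genes were called higher and 446 lower, and 2 and 2 of the lists, where fewer genes were tested. At the adjusted p alone these numbers were 4716 and 4706, and 36 and 31. Library totals gave 8 list genes higher. Leaving out each library gave 1008 to 1277 genes higher and 902 to 1075 lower, and 5 to 8 list genes higher and 6 to 8 lower, with 8 higher without MUL1(-/-) replicate 3. Of the 18 single genes outside the family, 240 values stayed as in the main fit, whether called or uncalled, 13 lost the call and 2 gained it. Direction was compared only where a threshold was passed, and the uncalled CEBPZOS ran from −0.10 to 0.04. CEBPB-AS1 reversed to −1.01 in its unshared bins. The cause was not tested.

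Replicate numbers are shared by the genotypes. Deviations of same-numbered libraries correlated at −0.0812 to 0.157 over 15858 genes, and those of differently numbered libraries at −0.178 to 0.0996. With 3 libraries per genotype these values cannot decide whether the numbers pair the libraries. With the replicate block 1015 genes were called higher and 940 lower, 5 and 6 list genes were called, CEBPD was at 1.45, and of the single genes PXDNL lost its call.

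The CEBPE level in MUL1(-/-) cells is at the limit of detection, since 3 counts cannot be told from absence, and many myeloid and liver genes lie at or near it in both genotypes.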

Other observations

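Of the markers of other cell types, PECAM1 and VWF of the 3 endothelial genes and LUM and DCN of the 4 fibroblast genes were higher in MUL1(-/-) cells. They passed both thresholds upward, as did 4.23% of all genes tested. PECAM1 was at 0.0518 ± 0.0422 and 0.223 ± 0.0507 CPM (SD, n = 3; log2 fold change 2.06, adjusted p = 0.00374 with edgeR) and VWF at 0.0994 ± 0.0606 and 0.354 ± 0.101 CPM (1.80, adjusted p = 0.00273), while CDH5 had at most 9 counts and was not tested. The 3 endothelial markers summed to 0.0953 to 0.247 CPM in WT and 0.460 to 0.711 CPM in MUL1(-/-) libraries. The matrix proteoglycan genes LUM (1.11 ± 0.0766 to 9.45 ± 2.59 CPM, 3.09, adjusted p = 6.80e-09) and DCN (1.19 ± 0.0408 to 2.92 ± 0.439 CPM, 1.30, adjusted p = 7.14e-06) rose, whereas the fibroblast collagen COL1A1 was lower at the adjusted p alone (21.9 ± 2.53 to 16.8 ± 1.91 CPM, −0.39, adjusted p = 0.00832) and COL1A2 was at 2.37 ± 1.63 and 3.15 ± 1.35 CPM. The 4 fibroblast markers summed to 23.7 to 31.2 CPM in WT and 27.9 to 36.8 CPM in MUL1(-/-) libraries, which overlapped.

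Among the genes expressed in HEK293, the intermediate filament gene NEFM rose from 1.74 ± 0.0852 to 3.64 ± 0.448 CPM (1.06, adjusted p = 2.09e-05), and KRT8 was lower at the adjusted p alone, from 324 ± 18.7 to 170 ± 12.1 CPM (−0.93, adjusted p = 2.05e-07), while its partner KRT18 was at 91.7 ± 4.74 and 92.2 ± 6.61 CPM (0.01).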
